A study of Mus musculus with 6 samples.

Results

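Solute carriers are membrane proteins that move nutrients, ions and metabolites across the plasma membrane and the membranes of organelles. Their genes were described here in developing mouse thymocytes. The genes were chosen by symbol and level: every probe with a single gene symbol that starts with Slc and a digit was taken, each gene was read from the probe whose mean over the 6 arrays was highest, and the gene was kept if that mean intensity was 50 or more. Of the 347 solute carrier genes on the array, 149 met this rule, from 41 families, among 18193 genes in all. The level chose the genes, so that levels are given as a description. The rule used no difference between stages. A gene with a DP mean under 50 could still be kept through its later stages. Of the genes that rose to CD8SP, these were Slc7a5, Slc43a3, Slc35g1, Slc13a1, Slc12a2, Slc14a1, Slc19a1, Slc32a1 and Slc37a1, and Slc17a9 was kept through CD8SP alone. The count of rises is therefore also given for genes with every stage mean at 50 or more. The counts by substrate class include these genes. They make up all rises of the nucleoside, vitamin, inorganic ion and organic ion classes. On either side of the threshold lay Slc25a53 (47.9), Slc9a8 (48.6) and Slc22a17 (49.7), which were left out, and Slc25a44 (50.2), Slc27a2 (51.6) and Slc17a9 (52.8), which were kept. Of the 198 genes left out, 154 also lay under the filter on dim genes used for the tests. All 149 kept genes passed that filter, 19 of them with a stage mean under 50. The symbol is also carried by 5 genes whose products are not transporters, among them the scaffold genes Slc9a3r1 and Slc9a3r2, and 144 are carriers.

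All mice were N15 TCR tg+/+ RAG-2-/- H-2b animals aged 5 to 6 weeks. They carry a rearranged T cell receptor transgene and cannot assemble receptor genes of their own, so that every group shares the transgene and the Rag2 deficiency. No wild-type group was part of the design. From 6 mice, CD4 and CD8 staining was used to sort double-positive thymocytes (DP), thymocytes with intermediate CD4 (CD4intCD8+) and CD8 single-positive thymocytes (CD8SP) in 2 independent experiments, and each stage has 2 arrays. The labels name no separate animals for the arrays of a stage. The p-values therefore measure only how far these arrays spread, which may be technical. The comparisons ask which transporter genes change as DP cells pass through the intermediate stage to CD8SP. In a sorted bulk sample, fewer cells of a type and less RNA per cell cannot be told apart.

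Solute carriers are grouped into families by sequence, and a family usually shares a class of substrate. Resting lymphocytes keep nutrient transporters low, and lymphocytes that receive antigen receptor and cytokine signals raise glucose and amino acid carriers, which feed growth through the kinase mTORC1. In the thymus, DP cells are small and mostly quiescent, and positive selection turns them into single-positive cells that later divide and leave. A transporter of the plasma membrane sets what enters the cell, while carriers of mitochondria, lysosomes, Golgi and endoplasmic reticulum set how substrates are shared inside it.

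The values are linear array intensities. Array medians lay between 24.9 and 25.7, and the ratio of 3′ to 5′ actin signal, higher where RNA is shorter, ranged from 1.98 (DP replicate 1) to 3.47 (CD4intCD8+ replicate 2). The T cell gene Cd3d read 3882 and 4072 at DP, 3572 and 3120.2 at CD4intCD8+, then 3051 and 2706 at CD8SP. Of 12 tested T cell and thymocyte markers, 5 were called lower in CD4intCD8+ than in DP and 9 in CD8SP, with 0 higher. Among all genes tested 4.85% and 8.38% were called lower. Summed, these markers ranged from 25096 to 27108 in DP, 16168 to 19561 in CD4intCD8+ and 16159 to 17554 in CD8SP. Cd4 was 351 and 515 at DP, -33.0 and 11.8 at CD4intCD8+, then -65.8 and -68.6 at CD8SP. Only the DP arrays stood apart. The later values lay below 0 or close to it, so that they do not rank CD4intCD8+ above CD8SP. Markers of other cell types were mostly dim: on every array, 6 of 6 dendritic, 7 of 8 epithelial, 9 of 14 myeloid, 6 of 8 fibroblast and endothelial, 3 of 6 B cell and 3 of 7 erythroid markers were under 50. The summed myeloid markers ranged from 365 to 429 in DP, 404 to 588 in CD4intCD8+ and 355 to 491 in CD8SP. The summed erythroid markers ranged from 309 to 476 in DP, 187 to 419 in CD4intCD8+ and 248 to 301 in CD8SP, and the summed B cell markers from 288 to 317, 274 to 401 and 412 to 461. Of 3 B cell markers tested, Cd79b and Igll1 were called higher in CD8SP than in DP, while Cd79a read 15.8 or less on every array. The summed fibroblast and endothelial markers ranged from 434 to 443 in DP, 347 to 353 in CD4intCD8+ and 326 to 330.5 in CD8SP, with no overlap between stages. Of 4 tested, 1 was called lower in CD8SP than in DP, Pecam1. These 3 calls were each lost without DP replicate 2 and without CD8SP replicate 2 (adjusted p from 0.0536 to 0.107). The part of these cells in the values below was not tested unless a value is given.

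Solute carrier genes were called about as often as all genes on the array in both comparisons with DP. From DP to CD4intCD8+, 9 of the 149 genes rose and 9 fell (12.1%; limma, adjusted p under 0.05), where 11.7% of all 10916 genes tested were called, 6.89% higher and 4.85% lower. From DP to CD8SP, 20 rose and 14 fell (22.8%), against 19.9% of all genes, 11.5% higher and 8.38% lower. From CD4intCD8+ to CD8SP, 1 gene was called, Slc17a9, against 0.119% of all genes, 0.101% higher and 0.0183% lower. Slc17a9 is the gene kept through CD8SP alone, and of the genes with every stage mean at 50 or more, 0 of 130 were called by limma in that comparison, where 13 had an unadjusted p under 0.05 (754 of the 8213 tested genes of that level, 9.18%, did). Against the mean of DP and CD8SP, the CD4intCD8+ stage differed in 0 of the 149 genes, against 0.00916% of all genes (0.00916% higher and 0% lower), while 19 of the 149 (12.8%) and 12.7% of all genes had an unadjusted p under 0.05. The median log2 change of the 149 genes was 0.01 from DP to CD8SP and -0.02 from DP to CD4intCD8+, against 0.02 and 0.01 for all genes tested.

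The counts rest on few arrays. A call is said to be lost where its adjusted p reached 0.05 with an array left out or under another setting. Without DP replicate 1 or 2, the count from DP to CD4intCD8+ was 5 or 3 (2.94% or 1.78% of all genes), and the count from DP to CD8SP was 17 without either (9.60% or 9.39% of all genes). Without CD8SP replicate 1 or 2 the latter was 20 in each case (14.3% or 10.004% of all genes). With the replicate number as a block, 36 solute carrier genes were called from DP to CD4intCD8+ (19 higher and 17 lower), against 23.6% of all genes. In the same fit 2 were called from CD4intCD8+ to CD8SP, against 2.07% of all genes, and 1 for the CD4intCD8+ stage against the others, against 1.91%. Both comparisons with DP share the DP arrays, so that their calls are not independent. Of the 130 genes whose 3 stage means were all 50 or more, 4 rose (3.08%) and 9 fell (6.92%) from DP to CD4intCD8+, where 6.90% of the 8213 tested genes of that level rose and 5.80% fell. From DP to CD8SP, 10 rose (7.69%) and 13 fell, against 11.3% and 9.67%. Without the genes that are dim at a stage, the share of rises among the solute carriers thus lay under that of all genes in both comparisons with DP, a difference that was not tested.

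**Figure D1:**
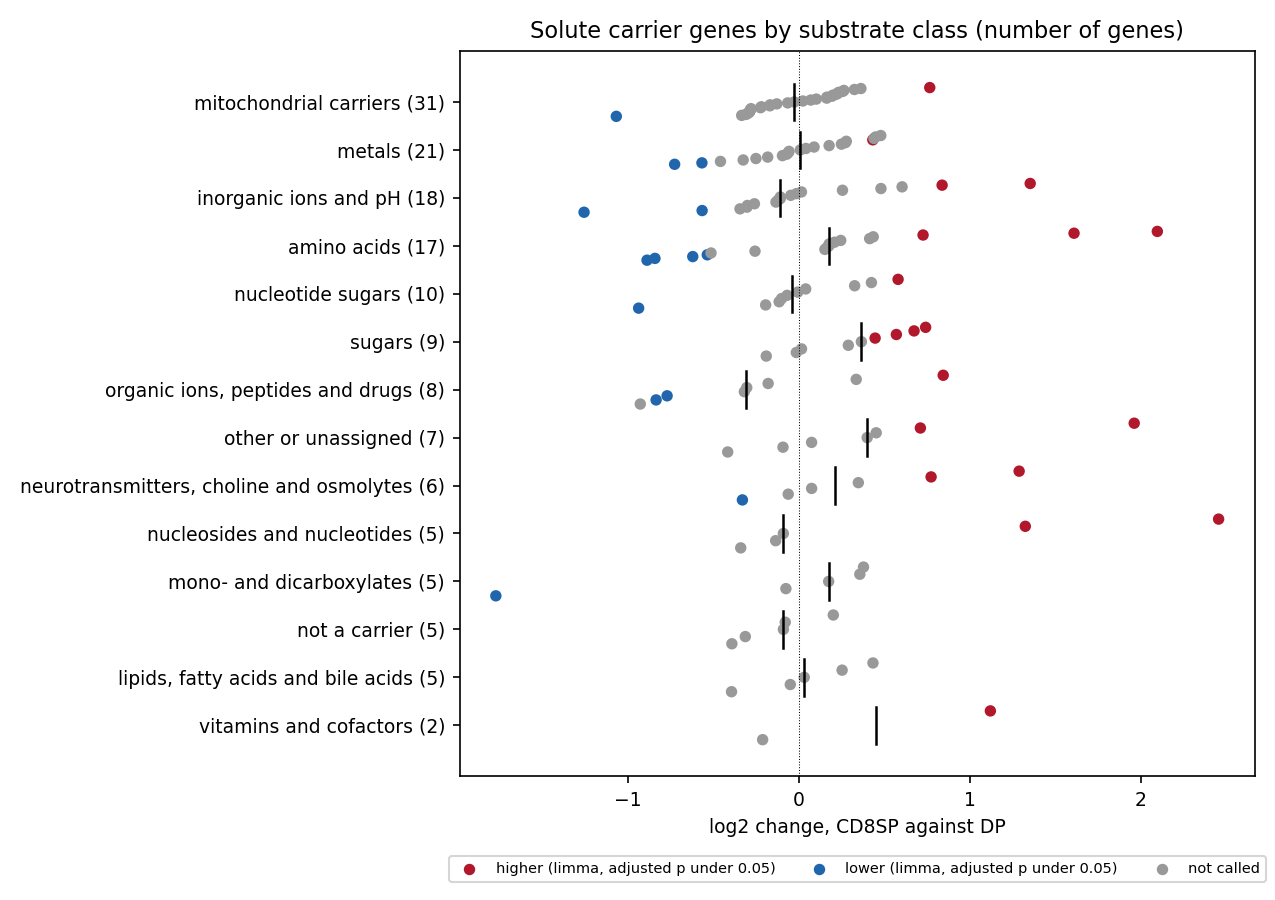
Log2 change from DP to CD8SP of the 149 solute carrier genes, 1 point per gene, in rows by substrate class with the number of genes in brackets. Black bars are class medians, red points are genes called higher, blue points genes called lower and grey points genes not called. In the sugar row 4 genes were called higher and 0 lower. Calls also lie on 1 side only in the nucleoside row (2 higher, 0 lower), the other or unassigned row (2 and 0), the vitamin row (1 and 0) and the mono- and dicarboxylate row (0 and 1). The remaining rows that hold calls have them on both sides.

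The amino acid carriers moved in both directions. Of the 17 genes of this class, 2 rose and 3 fell from DP to CD4intCD8+, and 3 rose and 4 fell from DP to CD8SP. These are 29.4% and 41.2% of the class, where 11.7% and 19.9% of all genes tested were called. The differences were not tested. Leaving out 1 array left between 2 and 3 rises and between 2 and 4 falls over the whole span. The rises were in family Slc7, which holds cationic amino acid carriers and the light chains of heteromeric exchangers. Slc7a5 encodes LAT1, the light chain that brings in leucine and other large neutral amino acids. Its intensity was 29.1 and 27.2 for the DP pair, 79.2 and 129 for the CD4intCD8+ pair, and 111 and 176 for the CD8SP pair. Every later array lay above both DP arrays, while the CD4intCD8+ and CD8SP arrays overlap. Slc7a5 rose by 1.65 ± 0.26 (adjusted p = 0.00776) on the log2 scale from DP to CD4intCD8+, where the value after ± is the SE of the fit, and by 2.10 ± 0.26 (adjusted p = 0.000953) from DP to CD8SP. The second call held under every alternative, and the first was lost without DP replicate 2 (adjusted p = 0.0609) and with an actin covariate (adjusted p = 0.0615), with a log2 change of 1.01 under the covariate. In the following, a pair of changes is given in this order, to CD4intCD8+ and then to CD8SP, both from DP.

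Slc7a1 encodes CAT1, a carrier of arginine and lysine. It read 99.8 and 115 for the DP pair, 246 and 254 for the CD4intCD8+ pair, and 277 and 415 for the CD8SP pair. The 3 stages did not overlap, and CD8SP replicate 2 was the highest array. Slc7a1 rose by 1.18 ± 0.19 (adjusted p = 0.00816) and by 1.61 ± 0.19 (adjusted p = 0.000706) to CD8SP. The change to CD8SP was called under every alternative, at 0.97 with a mean over all probes. The change to CD4intCD8+ was lost without DP replicate 1 or 2 (adjusted p from 0.0502 to 0.0634) and with an actin covariate (adjusted p = 0.0661). Slc3a2, the heavy chain that carries LAT1 to the surface, read 326 and 303 at DP, 359 and 329 at CD4intCD8+, then 443 and 400.2 at CD8SP. Its CD8SP arrays lay above its DP arrays, with a log2 change of 0.41 ± 0.13 (adjusted p = 0.0512) that missed the threshold and passed it with the replicate block (adjusted p = 0.0143). Slc7a6, another light chain, had a log2 change of 0.21 ± 0.18 (adjusted p = 0.46) to CD8SP.

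The falls included a system L-like carrier and a sodium-coupled carrier. Slc43a2 encodes LAT4, a facilitative carrier of large neutral amino acids. It read 412 and 536 for the DP pair, 249.8 and 247 for the CD4intCD8+ pair, and 258 and 244 for the CD8SP pair, so that both DP arrays lay above the other 4, which were within a narrow band. It fell by 0.90 ± 0.15 (adjusted p = 0.00888) and by 0.89 ± 0.15 (adjusted p = 0.00409) to CD8SP. The first of these calls was lost without DP replicate 2 (adjusted p = 0.0653). Slc38a2 encodes SNAT2, which accumulates small neutral amino acids with sodium. Its intensity was 1574 and 1338 for the DP pair, 952 and 1004 for the CD4intCD8+ pair, and 960.4 and 924 for the CD8SP pair. The DP arrays lay above all others, and the gene fell by 0.57 ± 0.11 (adjusted p = 0.0135) and by 0.62 ± 0.11 (adjusted p = 0.00491) to CD8SP. The call at the intermediate stage was lost without DP replicate 1 (adjusted p = 0.0946) and under 3 other settings (adjusted p from 0.0535 to 0.0854). Another of its 3 probes, with a stage mean between 53.7 and 58.7, had a difference of 0.02 from DP to CD8SP.

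Slc38a9, a lysosomal arginine sensor that signals to mTORC1, read 104 and 86.0 at DP, 63.4 and 54.7 at CD4intCD8+, then 53.5 and 47.1 at CD8SP. The DP arrays again lay above the rest. It fell by 0.63 ± 0.18 (adjusted p = 0.0497) and by 0.84 ± 0.18 (adjusted p = 0.0108) to CD8SP. The first call was lost without each of the 6 arrays in turn (adjusted p from 0.0542 to 0.266) and under 6 other settings (adjusted p from 0.0511 to 0.467), and the second without DP replicate 1 or CD8SP replicate 2 (adjusted p from 0.0664 to 0.0954) and with a mean over all probes (adjusted p = 0.109). The glutamine carriers Slc1a5 and Slc38a1 did not pass the test. Slc1a5, which encodes the glutamine carrier ASCT2, read 262 and 270.1 at DP, 197 and 221 at CD4intCD8+, then 280.3 and 314 at CD8SP, lowest at the intermediate stage, with log2 changes of -0.34 ± 0.14 (adjusted p = 0.131) and 0.15 ± 0.14 (adjusted p = 0.477) against DP. Slc38a1, another glutamine carrier, had log2 changes of 0.30 ± 0.12 (adjusted p = 0.137) and 0.25 ± 0.12 (adjusted p = 0.197). Of the remaining genes of the class, Slc7a8 rose by 0.73 ± 0.15 (adjusted p = 0.0115) and Slc66a2 fell by 0.54 ± 0.16 (adjusted p = 0.0425) to CD8SP. These were named after their values were seen. The Slc7a8 call was lost without DP replicate 2 or CD8SP replicate 1 (adjusted p from 0.0651 to 0.079), and the Slc66a2 call without DP replicate 1 or 2 or CD8SP replicate 1 or 2 (adjusted p from 0.0657 to 0.246) and under 4 other settings (adjusted p from 0.0547 to 0.454).

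**Figure D2:**
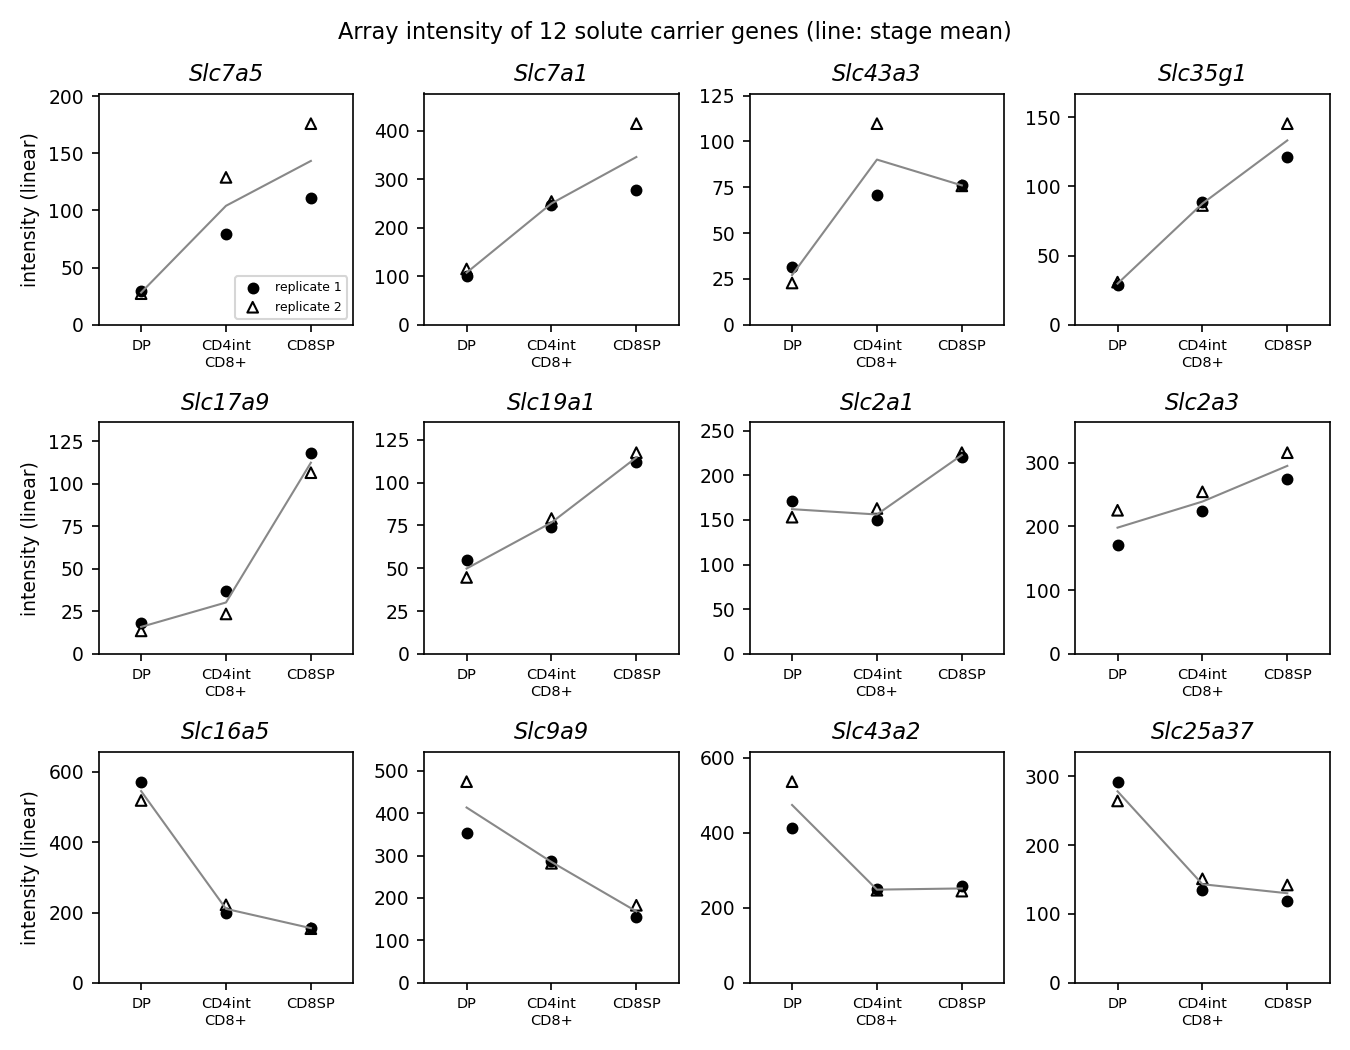
Linear array intensity of 12 solute carrier genes at the 3 stages, with circles for replicate 1, triangles for replicate 2 and a line through the stage means; each vertical axis starts at 0 and has its own scale. The CD8SP arrays lie above the DP arrays for the 8 genes in the upper and middle rows and below them for the 4 in the bottom row, and Slc17a9 stands at 118 and 107 in CD8SP after 36.9 and 23.4 in CD4intCD8+.

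All calls among the 9 genes classed as sugar carriers were rises. Slc2a9, a urate carrier of the GLUT family that fell, was placed with the organic ions. From DP to CD4intCD8+ 1 of the 9 genes rose, where 6.89% of all genes tested did. From DP to CD8SP 4 rose and 0 fell, against 11.5% and 8.38% of all genes, with a class median of 0.37. Leaving out 1 array left between 1 and 3 rises. The surface glucose carriers Slc2a1 (GLUT1) and Slc2a3 (GLUT3) were both among them, at the edge of the threshold. Slc2a1 read 171 and 153 for the DP pair, 149 and 163 for the CD4intCD8+ pair, and 220.0 and 225 for the CD8SP pair. Its DP and CD4intCD8+ arrays overlap and both CD8SP arrays lie above them. It rose by 0.45 ± 0.14 (adjusted p = 0.04999) from DP to CD8SP, against a log2 change of -0.05 ± 0.14 (adjusted p = 0.842) at the intermediate stage. Slc2a3 read 171 and 225 at DP, 224 and 254 at CD4intCD8+, then 274 and 316 at CD8SP, and replicate 2 lay above replicate 1 in each stage. It rose by 0.57 ± 0.17 (adjusted p = 0.0421) to CD8SP. The Slc2a1 call was lost without each of the 6 arrays in turn (adjusted p from 0.0587 to 0.222) and under 7 other settings (adjusted p from 0.0506 to 0.127). The Slc2a3 call was lost without DP replicate 1 or CD8SP replicate 1 or 2 (adjusted p from 0.0656 to 0.248) and under 5 other settings (adjusted p from 0.0534 to 0.577).

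The other rises of the class were carriers of sugar phosphates in the endoplasmic reticulum. Slc37a4, which brings glucose-6-phosphate into that compartment for hydrolysis, read 57.9 and 55.6 for the DP pair, 85.3 and 85.1 for the CD4intCD8+ pair, and 101 and 97.1 for the CD8SP pair, with no overlap between stages. It rose by 0.54 ± 0.15 (adjusted p = 0.0468) and by 0.74 ± 0.15 (adjusted p = 0.00871) to CD8SP. Its relative Slc37a1 read 52.6 and 41.9 at DP, 57.8 and 60.5 at CD4intCD8+, then 73.0 and 84.3 at CD8SP and rose by 0.67 ± 0.18 (adjusted p = 0.0301) to CD8SP. For Slc37a4, the call at the intermediate stage was lost without each of the 6 arrays in turn (adjusted p from 0.0641 to 0.17) and under 5 other settings (adjusted p from 0.052 to 0.237), and the call over the span without DP replicate 2 (adjusted p = 0.0588). For Slc37a1, the call was lost without DP replicate 1 or 2 or CD8SP replicate 1 or 2 (adjusted p from 0.0573 to 0.169) and with no filter on dim genes (adjusted p = 0.0517).

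Monocarboxylate carriers held the strongest fall of the family. Of 5 genes in this class, 0 rose and 1 fell in each comparison with DP (20%, against 11.7% and 19.9% of all genes tested). Slc16a5, a member of the monocarboxylate family, read 572 and 519 for the DP pair, 199 and 222 for the CD4intCD8+ pair, and 157 and 154 for the CD8SP pair, so that the stages did not overlap and CD8SP was lowest. It fell by 1.35 ± 0.13 (adjusted p = 0.00129) and by 1.77 ± 0.13 (adjusted p = 8.89e-05) to CD8SP. The calls held without any single array. They were lost with a mean over all probes, where a second probe under the filter enters (log2 changes -0.50 and -0.83, adjusted p = 0.291 and 0.076). Slc16a1 encodes MCT1, which carries lactate and pyruvate with protons. It read 347 and 345 at DP, 356 and 422 at CD4intCD8+, then 371 and 414 at CD8SP, with overlapping stages and a log2 change of 0.18 ± 0.14 (adjusted p = 0.408) to CD8SP. Slc16a11 and the dicarboxylate carrier gene Slc13a3 had log2 changes of 0.38 ± 0.19 (adjusted p = 0.204) and 0.36 ± 0.16 (adjusted p = 0.164). Slc16a3, the lactate exporter MCT4 of glycolytic cells, lay under the level threshold with a mean intensity of 16.3.

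Of 5 carriers of nucleosides and nucleotides, 1 rose from DP to CD4intCD8+, 2 rose to CD8SP and 0 fell in either comparison. The called shares were 20% and 40%, against 11.7% and 19.9% of all genes tested. Slc17a9 encodes VNUT, which loads ATP into secretory vesicles. It read 18.1 and 13.5 for the DP pair, 36.9 and 23.4 for the CD4intCD8+ pair, and 118 and 107 for the CD8SP pair. The CD8SP arrays stand well above the other 4, which do not overlap between DP and CD4intCD8+. Slc17a9 rose by 1.74 ± 0.24 (adjusted p = 0.0424) from CD4intCD8+ to CD8SP and by 2.46 ± 0.24 (adjusted p = 0.000318) from DP to CD8SP, while the change from DP to CD4intCD8+ was 0.72 ± 0.24 (adjusted p = 0.0876) and passed with the replicate block (adjusted p = 0.034). Because the DP level is low, the size depends on the scale: the change from DP to CD8SP was 1.60 with a pseudocount of 32 and 1.41 with a mean over all probes, called in each case. The call between CD4intCD8+ and CD8SP was lost without DP replicate 1 or 2, CD4intCD8+ replicate 2 or CD8SP replicate 1 or 2 (adjusted p from 0.0913 to 0.172) and under 4 other settings (adjusted p from 0.0522 to 0.112), and with a mean over all probes the change was 1.14. A filter at the 60th percentile leaves the gene untested. It met the level threshold through CD8SP alone, the stage where it is high.

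Slc43a3, which takes up purine nucleobases for salvage, read 31.4 and 22.8 for the DP pair, 70.5 and 109.7 for the CD4intCD8+ pair, and 76.3 and 75.8 for the CD8SP pair. All 4 later arrays lay above the DP arrays, and CD4intCD8+ replicate 2 was the highest. It rose by 1.52 ± 0.23 (adjusted p = 0.0068) and by 1.33 ± 0.23 (adjusted p = 0.00481) to CD8SP. The first call was lost without DP replicate 2 (adjusted p = 0.0572) and with an actin covariate (adjusted p = 0.0608). CD4intCD8+ replicate 2 also had the highest actin ratio and the highest summed myeloid markers. The part of either in the Slc43a3 values was not tested. The equilibrative nucleoside carriers Slc29a1 and Slc29a3 had log2 changes to CD8SP of -0.09 ± 0.22 (adjusted p = 0.813) and -0.34 ± 0.19 (adjusted p = 0.256).

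**Figure D3:**
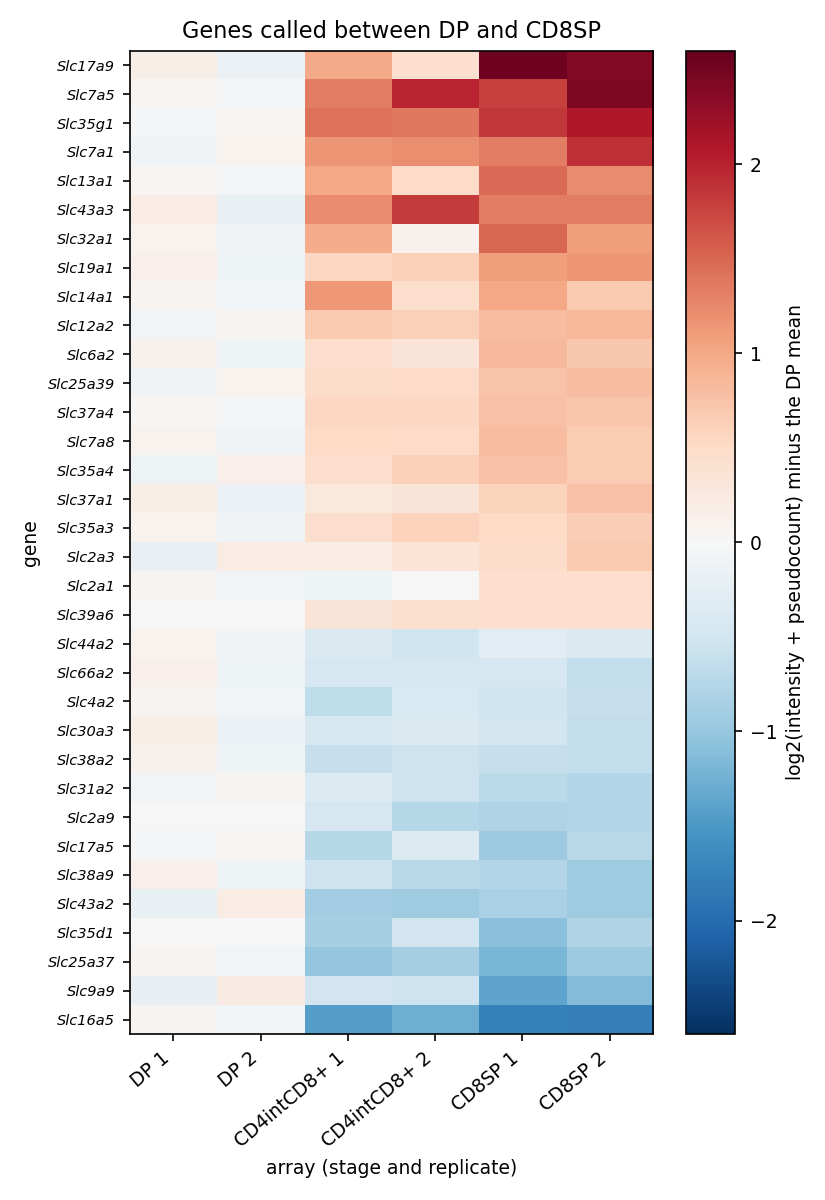
The 34 genes called between DP and CD8SP, in rows ordered by their change, against the 6 arrays in columns; colour is log2(intensity + 5.84) minus the gene's DP mean. From Slc17a9 to Slc39a6 the CD8SP columns are red, from Slc44a2 to Slc16a5 they are blue, and the CD4intCD8+ columns are mostly paler than the CD8SP columns, with Slc43a3 among the exceptions.

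Several genes without an assigned substrate or with a vitamin substrate rose. Slc35g1, an orphan member of family Slc35, read 28.6 and 30.8 for the DP pair, 88.9 and 86.2 for the CD4intCD8+ pair, and 121 and 145 for the CD8SP pair. Its 3 stages did not overlap and its replicates lay close together. It rose by 1.39 ± 0.16 (adjusted p = 0.00243) and by 1.96 ± 0.16 (adjusted p = 0.000159) to CD8SP. Both calls held in every alternative that tested the gene. In its group of 7 genes without an assigned substrate, 14.3% were called at the intermediate stage and 28.6% over the span. Among all genes tested these shares were 11.7% and 19.9%. Of the 7 genes in this group, 1 rose at the intermediate stage and 2 over the span, the other being Slc35a4, which read 108 and 132 at DP, 167 and 187 at CD4intCD8+, then 206 and 192 at CD8SP and rose by 0.71 ± 0.15 (adjusted p = 0.0118). At the intermediate stage its change of 0.54 ± 0.15 (adjusted p = 0.0505) passed with the replicate block (adjusted p = 0.017), and its call over the span was lost without DP replicate 1 or CD8SP replicate 1 (adjusted p from 0.0588 to 0.0909) and with a mean over all probes (adjusted p = 0.402). Slc35e1 had a change of 0.45 ± 0.15 (adjusted p = 0.057), called with the block (adjusted p = 0.0214).

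Slc19a1 encodes the reduced folate carrier, which supplies folate for nucleotide synthesis. It read 55.0 and 44.6 for the DP pair, 74.4 and 79.1 for the CD4intCD8+ pair, and 112 and 118 for the CD8SP pair, in 3 groups that did not overlap. It rose by 1.12 ± 0.16 (adjusted p = 0.00196) from DP to CD8SP and was called under every alternative, and its change of 0.57 ± 0.16 (adjusted p = 0.0523) at the intermediate stage passed with the replicate block (adjusted p = 0.0263). Slc23a2, a carrier of ascorbate and the other vitamin gene, had a log2 change of -0.21 ± 0.15 (adjusted p = 0.384).

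Promoter sequence is shown for 2 genes that rose and 2 that fell over the span. They were picked by hand among genes that kept their call over the span in every alternative that tested them. Other genes, Slc19a1 and Slc38a2 among them, also kept that call and are not shown. Slc7a1 and Slc43a2 have 2 windows each, of which 1 is printed. The windows are the 250 bases before the RefSeq start (GRCm38.p6), 5′ to 3′ on the gene's strand, in lower case, with a motif match in capitals where there is one. Slc7a1 lies at chr5:148399905-148400154 (minus strand) and Slc35g1 at chr19:38395730-38395979 (plus strand), and both rose. Slc43a2 lies at chr11:75531444-75531693 (plus strand) and Slc9a9 at chr9:94669642-94669891 (plus strand), and both fell.
Slc7a1: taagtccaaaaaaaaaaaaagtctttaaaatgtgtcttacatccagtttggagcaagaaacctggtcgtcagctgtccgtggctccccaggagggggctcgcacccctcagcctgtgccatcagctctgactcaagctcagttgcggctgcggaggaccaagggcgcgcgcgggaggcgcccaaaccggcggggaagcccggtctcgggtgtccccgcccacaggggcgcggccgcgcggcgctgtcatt
Slc35g1: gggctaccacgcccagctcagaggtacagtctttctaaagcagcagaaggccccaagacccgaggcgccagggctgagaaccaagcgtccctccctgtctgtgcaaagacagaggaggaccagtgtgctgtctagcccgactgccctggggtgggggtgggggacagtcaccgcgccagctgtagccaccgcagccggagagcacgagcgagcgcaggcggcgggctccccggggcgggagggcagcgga
Slc43a2: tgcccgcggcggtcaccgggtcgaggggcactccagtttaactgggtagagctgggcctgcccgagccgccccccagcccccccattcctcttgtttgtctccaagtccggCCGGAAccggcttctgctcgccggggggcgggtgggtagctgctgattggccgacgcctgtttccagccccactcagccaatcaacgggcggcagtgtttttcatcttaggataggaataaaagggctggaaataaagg
Slc9a9: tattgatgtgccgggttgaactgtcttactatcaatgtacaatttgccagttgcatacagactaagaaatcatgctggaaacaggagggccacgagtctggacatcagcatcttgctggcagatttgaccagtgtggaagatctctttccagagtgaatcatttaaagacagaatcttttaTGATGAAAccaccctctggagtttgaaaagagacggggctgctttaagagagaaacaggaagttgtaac
The capitals mark an Ets core in Slc43a2, which begins 139 bases before the start, and an amino acid response element in Slc9a9, 69 bases before the start. Of the 149 genes, 115 matched an entry, with 154 windows. An E-box (CACGTG, the site of Myc and Mitf family factors), the amino acid response element (TGATGNAA, the site of ATF4 with CEBP partners) and an Ets core (CCGGAA) were searched on both strands, and none of the 3 contains another. The E-box was found in 13.6% of the solute carrier windows and 6.02% of all 32851 windows, the Ets core in 20.1% and 12.03%, and the amino acid response element in 1.95% and 3.45%. The solute carrier genes were chosen by level and the windows of all genes were not, so these shares are not from like sets. The differences were not tested. Of the 20 genes that rose to CD8SP, 10 matched an entry and the other 10, Slc17a9 and Slc7a5 among them, were not searched. In the 10 that matched, 0 of 14 windows held any of the 3 motifs. Of the 14 genes that fell, 11 matched, and of their windows 0 of 15 held an E-box, 1 held the amino acid response element and 4 held an Ets core, those of Slc30a3, Slc43a2, Slc44a2 and Slc4a2. A match is a description of the letters and not of a bound site.

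Carriers of inorganic ions and protons held 18 genes, of which 2 rose and 0 fell from DP to CD4intCD8+, and 2 rose and 2 fell from DP to CD8SP. That is 11.1% and 22.2% of the class, against 11.7% and 19.9% of all genes tested. Slc9a9 encodes NHE9, a sodium-proton exchanger of endosomes that sets their pH. It read 352 and 474 for the DP pair, 288 and 282 for the CD4intCD8+ pair, and 154 and 183 for the CD8SP pair. The stages did not overlap and the level stepped down at each. It fell by 1.26 ± 0.17 (adjusted p = 0.0013) to CD8SP and was called under every alternative, at -0.54 with a mean over all probes. The change to CD4intCD8+ was -0.51 ± 0.17 (adjusted p = 0.0798) and that from CD4intCD8+ to CD8SP -0.74 ± 0.17 (adjusted p = 0.149), both called with the replicate block (adjusted p = 0.0197 and 0.0194). Slc4a2, an anion exchanger that swaps chloride for bicarbonate, was named after its values were seen and fell by 0.57 ± 0.15 (adjusted p = 0.0314). The Slc4a2 call was lost without DP replicate 1 or 2 or CD8SP replicate 1 or 2 (adjusted p from 0.0758 to 0.163) and with no filter on dim genes (adjusted p = 0.0515).

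Slc13a1, a sodium-sulfate carrier best known from kidney, read 36.9 and 33.5 for the DP pair, 76.8 and 52.1 for the CD4intCD8+ pair, and 109 and 90.2 for the CD8SP pair. The DP arrays lay under all others. It rose by 0.75 ± 0.21 (adjusted p = 0.0493) and by 1.35 ± 0.21 (adjusted p = 0.00266) to CD8SP. The call at the intermediate stage was lost without DP replicate 1 or 2, CD4intCD8+ replicate 1 or CD8SP replicate 1 or 2 (adjusted p from 0.0565 to 0.186) and under 6 other settings (adjusted p from 0.0501 to 0.0769). Slc12a2 encodes NKCC1, which brings sodium, potassium and chloride into the cell and restores its volume. It read 37.9 and 42.5 at DP, 67.8 and 65.1 at CD4intCD8+, then 74.7 and 78.1 at CD8SP. Its stages did not overlap, and it rose by 0.65 ± 0.17 (adjusted p = 0.0363) and by 0.84 ± 0.17 (adjusted p = 0.00821) to CD8SP. The call at the intermediate stage was lost without each of the 6 arrays in turn (adjusted p from 0.0504 to 0.176) and under 4 other settings (adjusted p from 0.0539 to 0.665), and that over the span without DP replicate 1 or CD8SP replicate 2 (adjusted p from 0.0525 to 0.0611) and with a mean over all probes (adjusted p = 0.263). Slc12a7, a potassium-chloride exporter, and Slc20a1, a phosphate importer, had log2 changes to CD8SP of -0.01 ± 0.21 (adjusted p = 0.974) and -0.11 ± 0.13 (adjusted p = 0.622). The probe that represents Slc4a8, an anion exchanger of the bicarbonate family, had a mean of 5127, while its 4 other probes had means of 12.01 to 30.5, and its log2 change to CD8SP was -0.13 ± 0.06 (adjusted p = 0.175). Slc4a8 was named after its values were seen.

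Among 21 metal carriers, 1 fell from DP to CD4intCD8+, and 1 rose and 2 fell from DP to CD8SP. Both shares of the class, 4.76% and 14.3%, lay under the 11.7% and 19.9% of all genes tested. Slc49a4, a member of a family that includes heme carriers, was placed in this class although its own substrate is uncertain. It is the 1 fall of the class from DP to CD4intCD8+, and it had its lowest level at the intermediate stage. It read 107 and 105 for the DP pair, 51.8 and 51.5 for the CD4intCD8+ pair, and 89.3 and 78.5 for the CD8SP pair. Both CD4intCD8+ arrays lay under the other 4. It fell by 0.97 ± 0.15 (adjusted p = 0.00776) from DP to CD4intCD8+, with a change of -0.32 ± 0.15 (adjusted p = 0.174) over the span. Against the mean of DP and CD8SP its change at the intermediate stage was -0.80 ± 0.13 (adjusted p = 0.278), called with the replicate block (adjusted p = 0.0233). The DP comparison was lost without DP replicate 1 or 2 (adjusted p from 0.0566 to 0.0579) and with a mean over all probes or an actin covariate (adjusted p from 0.0541 to 0.515), with a change of -0.34 for the mean of probes.

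Zinc and copper carriers made up the rest of the metal calls. Slc39a6, a zinc importer of the ZIP family, read 234 and 228 at DP, 294 and 309 at CD4intCD8+, then 312 and 315 at CD8SP and rose by 0.43 ± 0.12 (adjusted p = 0.0389) to CD8SP, with both DP arrays under the other 4. Its other 3 probes gave differences between -1.34 and 0.17, and with a mean over all probes the change was -0.25. The Slc39a6 call was lost without each of the 6 arrays in turn (adjusted p from 0.0547 to 0.148) and under 4 other settings (adjusted p from 0.0547 to 0.446), and at the intermediate stage its change of 0.38 ± 0.12 (adjusted p = 0.0813) was called with the block (adjusted p = 0.0356). Slc39a11, another importer, read 48.2 and 50.7 at DP, 74.3 and 72.4 at CD4intCD8+, then 74.0 and 68.7 at CD8SP, and its changes of 0.52 ± 0.16 (adjusted p = 0.0663) and 0.48 ± 0.16 (adjusted p = 0.0632) were called with the block (adjusted p = 0.0407 and 0.0449). Slc30a3, a zinc exporter into vesicles, fell by 0.57 ± 0.17 (adjusted p = 0.0476), and Slc31a2, a copper carrier of endosomes and lysosomes, fell by 0.73 ± 0.16 (adjusted p = 0.0131). Slc31a2 read 98.5 and 110.5 at DP, 80.6 and 69.6 at CD4intCD8+, then 62.2 and 59.4 at CD8SP, without overlap between stages. The Slc30a3 call was lost without DP replicate 1 or 2 or CD8SP replicate 1 or 2 (adjusted p from 0.0685 to 0.276) and with no filter on dim genes or an actin covariate (adjusted p from 0.0811 to 0.0825), and the Slc31a2 call without DP replicate 1 or 2 or CD8SP replicate 2 (adjusted p from 0.0521 to 0.0953) and with a mean over all probes (adjusted p = 0.0874). Slc11a2, the iron importer DMT1, had a change of 0.28 ± 0.24 (adjusted p = 0.461).

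The mitochondrial carriers of family Slc25 were the largest class. Of 31 genes, 1 rose and 1 fell in each comparison with DP, and the class median from DP to CD8SP was -0.03. The share called was 6.45% in each, against 11.7% and 19.9% of all genes tested. Slc25a37, mitoferrin-1, brings iron into mitochondria for heme and iron-sulfur clusters. It read 292 and 264 for the DP pair, 135 and 151 for the CD4intCD8+ pair, and 118 and 142 for the CD8SP pair. The DP arrays lay above the rest, whose stages overlap. It fell by 0.93 ± 0.15 (adjusted p = 0.00819) and by 1.07 ± 0.15 (adjusted p = 0.00173) to CD8SP. The first call was lost without DP replicate 1 or 2 (adjusted p from 0.0517 to 0.0654). Mitoferrin-1 is abundant in erythroid cells, and the erythroid marker Alas2 read 66.3 and 58.3 at DP, 48.0 and 32.4 at CD4intCD8+, then 53.1 and 23.7 at CD8SP and Hbb-b2 102 and 66.9 at DP, 61.0 and 31.2 at CD4intCD8+, then 46.2 and 28.4 at CD8SP. Alas2 was not called, Hbb-b2 was called lower in CD8SP than in DP, a call lost without DP replicate 1 or 2 or CD8SP replicate 2 (adjusted p from 0.0774 to 0.283) and under 5 other settings (adjusted p from 0.0509 to 0.098), and the part of these cells in the Slc25a37 values was not tested.

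Slc25a39, which imports glutathione into mitochondria, moved the other way. It read 348 and 397 for the DP pair, 518 and 527 for the CD4intCD8+ pair, and 624 and 649 for the CD8SP pair, with no overlap between stages. It rose by 0.48 ± 0.12 (adjusted p = 0.0333) and by 0.77 ± 0.12 (adjusted p = 0.0028) to CD8SP. The first call was lost without DP replicate 1 or 2 or CD4intCD8+ replicate 1 or 2 (adjusted p from 0.0732 to 0.177) and under 3 other settings (adjusted p from 0.0714 to 0.284). The ADP/ATP exchangers Slc25a4 and Slc25a5 were among the bright genes. Slc25a4 read 864 and 984 at DP, 1112 and 1152 at CD4intCD8+, then 1154 and 1160.3 at CD8SP, and Slc25a5 3116 and 3250.1 at DP, 3168 and 3208 at CD4intCD8+, then 2816 and 2636 at CD8SP. Their changes to CD8SP were 0.33 ± 0.10 (adjusted p = 0.0547) and -0.22 ± 0.07 (adjusted p = 0.0611), in opposite directions, and both were called with the replicate block (adjusted p = 0.0168 and 0.0252), as was the change of 0.29 ± 0.10 (adjusted p = 0.0967) of Slc25a4 to CD4intCD8+ (adjusted p = 0.033). Slc25a10, the dicarboxylate carrier, had a change of 0.36 ± 0.21 (adjusted p = 0.261). The other 26 genes had changes to CD8SP between -0.33 and 0.26.

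Nucleotide sugar carriers supply the Golgi and endoplasmic reticulum with donors for glycosylation. Of 10 genes, 1 rose and 1 fell in each comparison with DP (20%, against 11.7% and 19.9% of all genes tested). Slc35d1, which carries UDP-glucuronic acid and UDP-N-acetylgalactosamine, read 188 and 192 for the DP pair, 101 and 133 for the CD4intCD8+ pair, and 85.9 and 108 for the CD8SP pair. The DP arrays lay above the rest, whose stages overlap. It fell by 0.68 ± 0.18 (adjusted p = 0.0393) and by 0.94 ± 0.18 (adjusted p = 0.00685) to CD8SP. Slc35a3, a carrier of UDP-N-acetylglucosamine, read 97.6 and 85.7 at DP, 129 and 141 at CD4intCD8+, then 134 and 146 at CD8SP and rose by 0.53 ± 0.15 (adjusted p = 0.049) and by 0.58 ± 0.15 (adjusted p = 0.0248) to CD8SP. With the mean of its 4 probes, the Slc35a3 changes were -0.05 and 0.06. Slc35a1, the carrier of CMP-sialic acid, and Slc35c2 had changes to CD8SP of -0.10 ± 0.18 (adjusted p = 0.733) and 0.43 ± 0.18 (adjusted p = 0.131). For Slc35d1, the intermediate call was lost without DP replicate 1 or 2 or CD4intCD8+ replicate 1 (adjusted p from 0.138 to 0.159) and with no filter on dim genes or no intensity trend (adjusted p from 0.0566 to 0.0612), and the call over the span without DP replicate 2 (adjusted p = 0.0515). For Slc35a3, they were lost without each of the 6 arrays in turn (adjusted p from 0.0614 to 0.225) and under 6 other settings (adjusted p from 0.0509 to 0.903), and without DP replicate 1 or 2 or CD8SP replicate 1 or 2 (adjusted p from 0.0585 to 0.139) and with a mean over all probes (adjusted p = 0.868).

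Carriers of neurotransmitters, choline and osmolytes included genes best known from neurons. Of 6 genes, 1 fell at the intermediate stage, and 2 rose and 1 fell over the span. These calls are 16.7% and 50% of the class, against 11.7% and 19.9% of all genes tested. Slc32a1, the vesicular carrier of GABA and glycine, read 42.4 and 36.7 for the DP pair, 82.1 and 43.1 for the CD4intCD8+ pair, and 122 and 89.9 for the CD8SP pair. CD4intCD8+ replicate 2 stayed near the DP arrays while replicate 1 was higher, and the CD8SP arrays lay above all others. It rose by 1.29 ± 0.27 (adjusted p = 0.0116) to CD8SP. Its change to CD4intCD8+ was 0.54 ± 0.27 (adjusted p = 0.236), and 0.96 without CD4intCD8+ replicate 2 and 1.29 with an actin covariate, both called (adjusted p = 0.0452 and 0.0130). Slc6a2, the noradrenaline carrier, read 59.5 and 50.5 at DP, 76.8 and 71.0 at CD4intCD8+, then 103 and 93.4 at CD8SP and rose by 0.77 ± 0.16 (adjusted p = 0.0108). With the mean of all probes the changes were 0.30 and 0.13. The Slc32a1 call was lost without DP replicate 1 or 2 or CD8SP replicate 1 (adjusted p from 0.0541 to 0.0783) and with a mean over all probes (adjusted p = 0.332), and the Slc6a2 call without DP replicate 2 or CD8SP replicate 1 (adjusted p from 0.0598 to 0.0783) and with a mean over all probes (adjusted p = 0.63). Slc44a1, a choline carrier, had a change of 0.35 ± 0.12 (adjusted p = 0.0812), called with the block (adjusted p = 0.0368). Its relative Slc44a2, named after its values were seen, fell by 0.45 ± 0.10 (adjusted p = 0.0214) and by 0.33 ± 0.10 (adjusted p = 0.0438) to CD8SP. The Slc44a2 calls were lost without DP replicate 1 or 2 or CD4intCD8+ replicate 2 (adjusted p from 0.0597 to 0.134) and under 3 other settings (adjusted p from 0.0906 to 0.293), and without DP replicate 1 or 2 or CD8SP replicate 1 or 2 (adjusted p from 0.0627 to 0.229) and under 5 other settings (adjusted p from 0.0771 to 0.782).

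Among 8 carriers of organic ions, peptides and drugs, 0 were called by limma at the intermediate stage, where 3 had an unadjusted p under 0.05 (28.9% of all genes did), and 1 rose and 2 fell over the span. Over the span 37.5% of the class was called, against 19.9% of all genes tested. Slc17a5, which exports sialic acid from lysosomes, read 119.9 and 130.0 at DP, 72.3 and 96.3 at CD4intCD8+, then 61.8 and 73.6 at CD8SP and fell by 0.83 ± 0.18 (adjusted p = 0.012). Slc2a9, a urate carrier of the GLUT family, fell by 0.77 ± 0.18 (adjusted p = 0.0169). Slc14a1, a urea channel of red cells and kidney, read 38.8 and 34.9 at DP, 87.5 and 52.7 at CD4intCD8+, then 79.99 and 62.6 at CD8SP and rose by 0.85 ± 0.24 (adjusted p = 0.0389), while the summed erythroid markers were 476 and 309 in DP and 301 and 248 in CD8SP. The changes to CD4intCD8+ of Slc17a5, Slc2a9 and Slc14a1 were -0.55 ± 0.18 (adjusted p = 0.0796), -0.59 ± 0.18 (adjusted p = 0.0633) and 0.79 ± 0.24 (adjusted p = 0.0649), and were called with the block (adjusted p = 0.022, 0.0353 and 0.0133). For Slc14a1 the change to CD4intCD8+ was 1.39 with an actin covariate (adjusted p = 0.0110) and 1.13 without CD4intCD8+ replicate 2 (adjusted p = 0.0235). The Slc17a5 call over the span was lost without DP replicate 1 or 2 or CD8SP replicate 1 (adjusted p from 0.0581 to 0.0829). The Slc2a9 call was lost without DP replicate 1 or 2 or CD8SP replicate 1 or 2 (adjusted p from 0.0603 to 0.0925) and with a mean over all probes (adjusted p = 0.113). The Slc14a1 call was lost without DP replicate 1 or 2 or CD8SP replicate 1 or 2 (adjusted p from 0.067 to 0.167) and with no filter on dim genes or no intensity trend (adjusted p from 0.0501 to 0.0573).

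Slc15a2 encodes PEPT2, which takes up small peptides with protons, and its level followed the replicate number more than the stage. It read 833 and 209 for the DP pair, 425 and 169 for the CD4intCD8+ pair, and 337 and 139 for the CD8SP pair. Replicate 1 lay above replicate 2 by more than 1 on the log2 scale at every stage, and within each replicate the level fell from DP to CD8SP. The changes against DP were -0.63 ± 0.64 (adjusted p = 0.561) and -0.93 ± 0.64 (adjusted p = 0.352), and with the replicate block they were called (adjusted p = 0.0223 and 0.0023). It was the only one of the 149 genes with a replicate difference of this kind, against 6 of 10916 genes tested. Without DP replicate 1 the change to CD8SP was 0.06, and without DP replicate 2 it was -1.91. Slc12a8, named after its values were seen, showed the same order of replicates at 104 and 32.5 at DP, 69.7 and 26.7 at CD4intCD8+, then 76.6 and 42.0 at CD8SP, with a change to CD8SP of -0.05 ± 0.52 (adjusted p = 0.964).

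**Figure D4:**
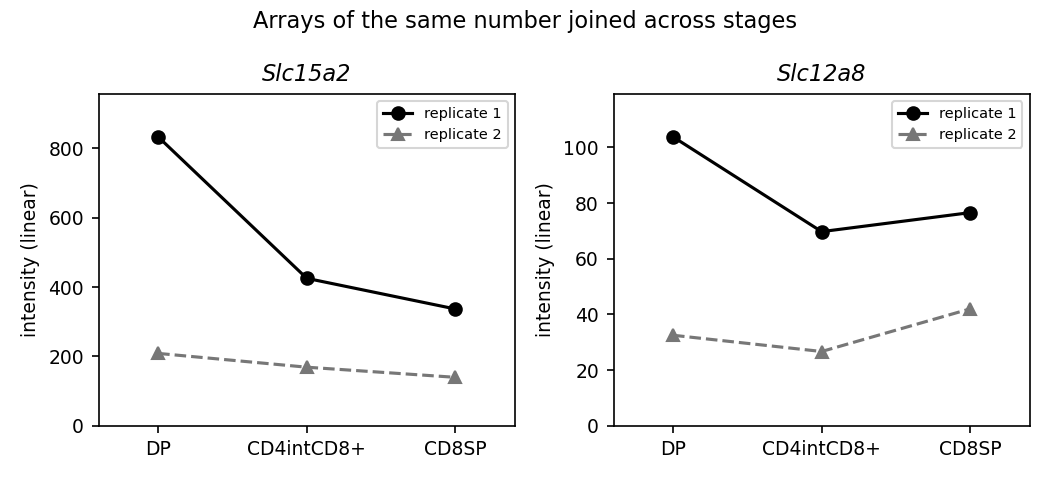
Linear intensity of Slc15a2 and Slc12a8 at the 3 stages, with circles joined for replicate 1 and triangles joined for replicate 2. The replicate 1 line lies above the replicate 2 line at every stage in both panels, and both Slc15a2 lines fall from DP to CD8SP, from 833 to 337 and from 209 to 139.

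The 5 lipid, fatty acid and bile acid carriers held 0 calls by limma, and 2 of them had an unadjusted p under 0.05 in each comparison with DP, as did 28.9% of all genes from DP to CD4intCD8+ and 33.5% from DP to CD8SP. Slc51a, a subunit of an exporter of steroids and bile acids, and the fatty acid transport genes Slc27a2 and Slc27a4 had changes to CD8SP of 0.43 ± 0.17 (adjusted p = 0.106), 0.25 ± 0.19 (adjusted p = 0.392) and -0.39 ± 0.16 (adjusted p = 0.118). Of the 5 genes that carry the symbol without being carriers, Slc9a3r1, which encodes the scaffold protein NHERF1, read 1394 and 1511 at DP, 1065 and 1059.9 at CD4intCD8+, then 1245 and 981 at CD8SP and fell by 0.45 ± 0.12 (adjusted p = 0.048) to CD4intCD8+. That call was lost without DP replicate 1 or 2 or CD4intCD8+ replicate 1 or 2 (adjusted p from 0.0883 to 0.198) and under 5 other settings (adjusted p from 0.0687 to 0.34), and the change of -0.39 ± 0.12 (adjusted p = 0.0545) to CD8SP was called with the block (adjusted p = 0.0205). The scaffold gene Slc9a3r2 and the adaptor gene Slc4a1ap had changes to CD8SP of -0.31 ± 0.15 (adjusted p = 0.194) and 0.20 ± 0.20 (adjusted p = 0.52).

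Different probes of a gene did not always give the same change. Of the 18 genes called from DP to CD4intCD8+, 9 had another probe above the filter level, and in 9 of 9 it moved in the same direction. Of the 34 called from DP to CD8SP, 19 had another such probe. All of them moved in the same direction in 16 genes, and at least 1 moved the opposite way in Slc38a2, Slc39a6 and Slc44a2.

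Genes that work with solute carriers were described from 6 lists. Of 39 tested carriers under other symbols, 4 rose and 2 fell from DP to CD8SP, with a median of 0.06. Among all genes tested, 11.5% rose and 8.38% fell in that comparison. Sfxn1, the mitochondrial serine carrier sideroflexin 1, read 196 and 187 for the DP pair, 383 and 412 for the CD4intCD8+ pair, and 413 and 556 for the CD8SP pair. It rose by 1.03 ± 0.16 (adjusted p = 0.00693) and by 1.30 ± 0.16 (adjusted p = 0.000822) to CD8SP. Slco3a1, an organic anion carrier, read 171 and 240.4 at DP, 64.7 and 77.0 at CD4intCD8+, then 59.6 and 79.0 at CD8SP, and it fell by 1.45 ± 0.21 (adjusted p = 0.00534) and by 1.49 ± 0.21 (adjusted p = 0.00155). Mtch2, a protein of the mitochondrial outer membrane from the carrier family, rose by 0.68 ± 0.13 (adjusted p = 0.0124) and by 0.69 ± 0.13 (adjusted p = 0.00618). At the intermediate stage, the Sfxn1 call was lost without DP replicate 2 (adjusted p = 0.0572) and with an actin covariate (adjusted p = 0.0584), the Slco3a1 call without DP replicate 2 (adjusted p = 0.0517) and the Mtch2 call without DP replicate 1 or 2 or CD4intCD8+ replicate 2 (adjusted p from 0.0653 to 0.0801) and with a mean over all probes or an actin covariate (adjusted p from 0.103 to 0.16). Over the span the Mtch2 call was lost with a mean over all probes (adjusted p = 0.151). Of 7 accessory proteins, 0 rose and 1 fell over the span: Ostm1, a subunit of a lysosomal chloride-proton exchanger, fell by 0.66 ± 0.13 (adjusted p = 0.00712), a call lost without DP replicate 2 (adjusted p = 0.0544).

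The sodium pump makes the gradient that sodium-coupled carriers use. Of its 6 tested genes, 2 rose and 0 fell from DP to CD8SP, while the median log2 change of the 6 was -0.17. In that comparison 11.5% of all genes tested rose and 8.38% fell. Atp1b3, a beta subunit, read 1106 and 929 for the DP pair, 1203 and 946 for the CD4intCD8+ pair, and 1773 and 1673 for the CD8SP pair, with only the CD8SP arrays apart, and rose by 0.76 ± 0.14 (adjusted p = 0.00512). Fxyd5, a regulatory subunit, read 749 and 828 at DP, 1311 and 909 at CD4intCD8+, then 1679 and 1543 at CD8SP and rose by 1.03 ± 0.16 (adjusted p = 0.00273). Of 20 ABC transporter genes, 2 rose and 2 fell over the span, against 11.5% and 8.38% of all genes tested. Abcc1, an exporter of glutathione conjugates, rose by 0.91 ± 0.21 (adjusted p = 0.0254) and by 1.37 ± 0.21 (adjusted p = 0.0023), Abce1, a ribosome recycling factor with no transport role, rose by 0.44 ± 0.12 (adjusted p = 0.0413) and by 0.60 ± 0.12 (adjusted p = 0.008), and Abcg2, a drug and porphyrin exporter, fell by 0.75 ± 0.21 (adjusted p = 0.0355). At the intermediate stage, the Abcc1 call was lost without DP replicate 1 or 2 or CD4intCD8+ replicate 1 or 2 (adjusted p from 0.0551 to 0.112) and with a mean over all probes or an actin covariate (adjusted p from 0.0726 to 0.0923) and the Abce1 call without each of the 6 arrays in turn (adjusted p from 0.0532 to 0.22) and under 5 other settings (adjusted p from 0.052 to 0.317). Over the span, the Abce1 call was lost without DP replicate 2 or CD8SP replicate 2 (adjusted p from 0.0535 to 0.0601) and the Abcg2 call without DP replicate 1 or 2 or CD8SP replicate 1 or 2 (adjusted p from 0.0757 to 0.21) and with no filter on dim genes (adjusted p = 0.0556).

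Of 10 tested genes of iron and zinc handling, 1 rose and 1 fell over the span, against 11.5% and 8.38% of all genes tested. Tfrc, the transferrin receptor through which cells take up iron, read 744 and 585 for the DP pair, 948 and 1095 for the CD4intCD8+ pair, and 942 and 1055 for the CD8SP pair, and it rose by 0.62 ± 0.14 (adjusted p = 0.0246) and by 0.59 ± 0.14 (adjusted p = 0.0189). Hmox2, a heme oxygenase, fell by 0.48 ± 0.12 (adjusted p = 0.0243). The Tfrc calls were lost without DP replicate 2 or CD4intCD8+ replicate 2 (adjusted p from 0.13 to 0.132) and under 3 other settings (adjusted p from 0.0662 to 0.466) at the intermediate stage, and without DP replicate 2 or CD8SP replicate 2 (adjusted p from 0.111 to 0.117) and with a mean over all probes or no intensity trend (adjusted p from 0.0541 to 0.35) over the span. The Hmox2 call was lost without DP replicate 2 or CD8SP replicate 2 (adjusted p from 0.137 to 0.146) and with no intensity trend (adjusted p = 0.0609). Of 40 tested regulators of nutrient uptake, 2 rose and 4 fell at the intermediate stage, and 3 rose and 2 fell over the span. Among all genes tested, 6.89% rose and 4.85% fell at the intermediate stage, and 11.5% and 8.38% over the span. Myc, a transcription factor that raises nutrient carriers in activated T cells, read 43.8 and 27.8 for the DP pair, 95.4 and 116 for the CD4intCD8+ pair, and 201 and 171 for the CD8SP pair, in 3 groups that did not overlap. It rose by 1.44 ± 0.21 (adjusted p = 0.00572) and by 2.23 ± 0.21 (adjusted p = 0.000264) to CD8SP. Sesn3, a stress-induced brake on mTORC1, rose by 0.84 ± 0.14 (adjusted p = 0.0091) and by 1.18 ± 0.14 (adjusted p = 0.000781), and Rragd, a GTPase that links lysosomal amino acids to mTORC1, fell by 1.23 ± 0.27 (adjusted p = 0.0212) and by 1.16 ± 0.27 (adjusted p = 0.0166). The Sesn3 call at the intermediate stage was lost without DP replicate 2 (adjusted p = 0.0674). The Rragd calls were lost without DP replicate 1 or 2 (adjusted p from 0.0894 to 0.136) and with a mean over all probes (adjusted p = 0.394), and without DP replicate 1 or 2 or CD8SP replicate 1 or 2 (adjusted p from 0.0563 to 0.122) and with a mean over all probes (adjusted p = 0.579).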

How the data were processed

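The deposited table holds 1 linear intensity per probe and array, per the file headers. The steps by which the authors computed and scaled it are not stated in the sources used here. Of 45101 probes, 64 are controls; 3.60% of the other values lie below 0 and were set to 0. Each of 18193 genes took its probe with the highest mean, named from the platform annotation. log2(intensity + 5.84) was fitted with limma 3.58.1 (R 4.3.3; intensity trend, all 6 arrays, stage as the only term) for 10916 genes with a mean of at least 30.7 (the 40th percentile). Prior degrees of freedom were 6.08 and residual 3. Benjamini-Hochberg adjustment ran within each of the 4 contrasts, and an adjusted p under 0.05 was called. Fold changes of dim genes are understated on this scale.

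The gene set, substrate classes, 6 related lists, 7 marker lists and 3 motifs were chosen with earlier results of these data known. Substrate classes were assigned from background knowledge, by family or by gene, and some substrates are uncertain. The 59 named genes were the called genes that rose most (up to 8) or fell most (up to 8) per contrast without overlap of arrays, up to 3 tested genes per class with the largest change from DP to CD8SP, and 22 anchors, of which Slc16a3 lay under the level threshold; of the related lists, up to 3 called genes each. Same-numbered arrays deviated together from their stage means (correlations across genes 0.26, 0.21 and 0.30). The labels do not tie the replicate numbers to the 2 experiments and state no pairing. The calls reported therefore come from the fit without a block, and the replicate block is given as an alternative. Other settings tried were pseudocounts of 1 and 32, no filter and a 60th-percentile filter, quantile normalization, the mean of all probes, no trend, only the compared stages, the actin ratio as a covariate, the replicate block, each array left out, and level thresholds of 25 and 100. No symbol needed an update through its Entrez number.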

Additional observations from a re-analysis of the deposited data

How the results depend on the processing

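The number of solute carrier genes called from DP to CD4intCD8+, 18 as reported (11.7% of all genes), was 11 with no filter on dim genes (5.71% of all genes), 8 with the mean of all probes (6.999%), 10 with no intensity trend (7.38%), 9 with the actin ratio as a covariate (3.76%), 36 with the replicate block (23.6%), 10 of 77 at a level threshold of 100, and between 3 and 13 with 1 array left out (1.78% to 12.9%). From DP to CD8SP it was 34 (19.9% of all genes), against 21 with the mean of all probes (14.2%), 16 of 77 at a threshold of 100, 47 with the block (30.0%) and between 17 and 33 with 1 array left out (9.39% to 21.5%). From CD4intCD8+ to CD8SP the single call fell to 0 with a pseudocount of 1, no filter, a 60th-percentile filter, the mean of all probes, only the compared stages fitted or a threshold of 100, rose to 2 with the replicate block (2.07% of all genes), and was between 0 and 1 with 1 array left out. For the contrast of CD4intCD8+ with both other stages, the count of 0 became 1 with the replicate block (1.91%) and was between 0 and 1 with 1 array left out. Direction reversed with the mean of all probes for Slc35a3 from DP to CD4intCD8+ (-0.051) and Slc39a6 from DP to CD8SP (-0.25). Of 48 calls of named genes, 35 were lost in at least 1 alternative, 27 without DP replicate 1, 28 without DP replicate 2 and 0 with the replicate block. The causes were not tested. With 2 arrays per stage and a median SE of 0.17 for a log2 difference, small changes are not resolved, and a level near the pseudocount gives no stable fold.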
